A study of Mus musculus with 42 samples.

Results

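Insm1, Neurog2, Eomes, Dll1, Dll3, Notch1, Hes1, Hes5 and Hes6, which act together in the step from neural progenitor to neuron, were described in mouse neuronal cultures of 3 genotypes and in peak lists from adult hippocampus. They are 9 of the 52636 genes in each count file, and all 9 were among the 17173 genes tested. They were chosen by their function with earlier results of these data known, and Insm1 was selected on its culture values, as a gene that was low in Ts65Dn and high in Ts65Dn;Brwd1+/-. Their culture values and differences are therefore given as a description with no test, and p-values are given only for other genes of the pathway. The study asked what returning the dose of Brwd1, a chromatin gene on mouse chromosome 16, to normal does in a trisomic brain. RNA-seq came from primary neuronal cultures of embryonic day 16 forebrain, labelled as pooled from both sexes, with 3 libraries each from euploid, Ts65Dn and Ts65Dn;Brwd1+/- embryos. The paper's methods describe dissected cortices, whose cells were collected after further days in culture. The values are therefore not those of embryonic day 16 tissue. Ts65Dn mice carry an extra segment made of distal chromosome 16 and proximal chromosome 17, and Ts65Dn;Brwd1+/- mice carry the same segment together with 1 mutant (repro5) allele of Brwd1. All groups shared a mixed DBA/2J and B6EiC3Sn/J background, and all cultures had been treated with AraC, which kills dividing cells, so dividing cells were selected against in every genotype. Peak lists for SMARCA2/4, the ATPases of the BAF chromatin remodelling complex, came from the hippocampus of males between 6 and 8 weeks old, with tissue pooled from a pair of animals for each library, and those for open chromatin (ATAC-seq) from sorted NeuN-positive hippocampal nuclei of male mice. None of the 9 genes lies in the extra segment. Hes1, on chromosome 16, ended 54.65 Mb before its proximal edge, and Dll1, on chromosome 17, lay 6.38 Mb beyond its distal edge.

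In the developing forebrain, radial glia keep dividing while signalling through Notch1 holds their proneural genes down. The cleaved receptor enters the nucleus with RBPJ and switches on Hes1 and Hes5, basic helix-loop-helix (bHLH) repressors that act on proneural genes and on the ligand Dll1. A cell in which a proneural factor such as Neurog2 prevails raises Dll1, which activates Notch in its neighbours, and turns on Insm1 and Eomes as it becomes an intermediate progenitor and then a neuron. Eomes marks this step in the cortex, whereas in the ventral forebrain, the source of interneurons, the Dlx genes take a leading part.

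Promoter sequences of the members are shown where a peak or a shared pattern bears on them. The window ran from 250 bases before to 50 bases after a gene's start, as RefSeq gives it for GRCm38.p6, the build called mm10. A window was found for 7 of the 9 members, with no entry for Insm1 and Hes1. Each window was searched on both strands for CAGCTG, an E-box bound by proneural factors, for TGGGAA, the core that RBPJ recognises, and for CACNAG, the N-box of Hes repressors. Hes5, Dll1 and Dll3 are shown because they hold the RBPJ core or the E-box and were lowest in Ts65Dn and highest in Ts65Dn;Brwd1+/-, and Hes6 because open chromatin lay on its window. Capitals mark the matches.
Hes5 promoter (chr4:154960673-154960972, plus strand): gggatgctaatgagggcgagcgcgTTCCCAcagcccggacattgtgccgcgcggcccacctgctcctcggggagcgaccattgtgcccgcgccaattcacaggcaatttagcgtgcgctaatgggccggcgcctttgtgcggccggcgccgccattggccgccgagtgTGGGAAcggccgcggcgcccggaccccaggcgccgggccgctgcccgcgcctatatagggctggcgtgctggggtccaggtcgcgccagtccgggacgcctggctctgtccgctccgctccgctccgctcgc
Dll1 promoter (chr17:15376883-15377182, minus strand): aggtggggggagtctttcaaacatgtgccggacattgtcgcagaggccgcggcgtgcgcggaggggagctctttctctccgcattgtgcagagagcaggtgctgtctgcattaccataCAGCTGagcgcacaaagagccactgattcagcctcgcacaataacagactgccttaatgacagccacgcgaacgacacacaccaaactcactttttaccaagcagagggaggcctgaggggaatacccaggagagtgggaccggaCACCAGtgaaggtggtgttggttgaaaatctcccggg
Dll3 promoter (chr7:28301736-28302035, minus strand): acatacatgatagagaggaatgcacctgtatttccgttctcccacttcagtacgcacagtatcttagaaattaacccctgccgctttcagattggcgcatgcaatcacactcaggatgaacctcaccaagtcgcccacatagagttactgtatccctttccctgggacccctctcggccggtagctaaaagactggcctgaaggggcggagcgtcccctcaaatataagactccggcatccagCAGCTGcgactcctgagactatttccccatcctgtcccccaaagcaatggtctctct
Hes6 promoter (chr1:91413173-91413472, minus strand): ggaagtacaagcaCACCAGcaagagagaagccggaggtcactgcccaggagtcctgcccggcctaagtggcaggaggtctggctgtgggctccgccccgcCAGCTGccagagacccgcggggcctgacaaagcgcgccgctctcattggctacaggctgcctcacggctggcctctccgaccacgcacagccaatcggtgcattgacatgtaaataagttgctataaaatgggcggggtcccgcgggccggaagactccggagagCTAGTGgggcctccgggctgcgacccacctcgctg
Hes5 held TGGGAA once on each strand, at 226 and 82 bases before the start, and was the only 1 of the 7 members with this core. Of all 32851 promoter windows of the same length, 25.6% held it. CAGCTG lay in windows of 3 members (Dll1, Dll3 and Hes6), beside 16.3% of all windows, and CACNAG in windows of 5 members (Neurog2, Eomes, Dll1, Notch1 and Hes6), beside 42.5%. No match to 1 motif overlapped a match to another in these windows, although 2 N-box matches at the Notch1 start overlapped each other. These matches describe letters, not binding.

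The 9 culture libraries held 17270070 to 25892802 reads counted in genes. Brwd1 was at 89.4 CPM (a gene's reads in every 1000000 reads of the scaled library) ± 3.66 (SD, n = 3) in euploid, 127 ± 2.13 in Ts65Dn and 139 ± 12.3 in those labelled Ts65Dn;Brwd1+/-. The last of these differed from Ts65Dn by a log2 fold change of 0.13 (SE 0.08, edgeR adjusted p = 0.186), and not downwards. Xist, the RNA of the silenced X chromosome in females, was at most 1.12 CPM in euploid and Ts65Dn libraries and at least 1409 CPM in the others, and the sum of 4 Y-linked genes was at least 193.8 CPM in the former and at most 0.149 CPM in the latter. Reads counted over the whole of Brwd1 thus did not show the lower dose that the label implies. Whether the mutant allele is still counted in them was not tested. For its rescue checks by qPCR the paper used separate Brwd1 primers, and it reported the rescue of Brwd1 in embryonic forebrain. Sex and genotype cannot be told apart in any comparison with the libraries labelled Ts65Dn;Brwd1+/-. Because each culture was measured in bulk, fewer cells of a type and less RNA per cell cannot be told apart either. The labels do not say that the 3 libraries of a genotype came from separate embryos, so p-values measure the spread between these libraries only. The kit did not mark strand, and reads of Dll1, Notch1, Hes5 and Eomes could not be separated from those of genes on the opposite strand, whose highest levels were 3.14 CPM (A930024N18Rik, at Dll1), 1.59 (0610009E02Rik, at Notch1), 0.334 (Gm20421, at Hes5) and 0.089 (Gm33460, at Eomes).

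The proneural and progenitor factors of the set were lowest in Ts65Dn and highest in the libraries labelled Ts65Dn;Brwd1+/-. Insm1 (ENSMUSG00000068154, mm10 chromosome 2, 146221921 to 146225020, plus strand) encodes a zinc-finger repressor that favours the birth of intermediate progenitors. It was at 24.03, 30.0 and 26.1 CPM in the 3 euploid libraries, at 7.10, 8.94 and 7.02 CPM in the Ts65Dn libraries, and at 68.1, 58.4 and 63.5 CPM in those labelled Ts65Dn;Brwd1+/-. No library of a genotype reached the range of another. The log2 fold change of Insm1 was -1.80 (SE 0.12) in Ts65Dn vs. euploid, a 3.48-fold lower level, and 3.05 (SE 0.12) in the libraries labelled Ts65Dn;Brwd1+/- vs. Ts65Dn, an 8.26-fold higher one. The latter stood 2.37-fold above euploid (log2 1.25, SE 0.11).

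Neurog2 (chromosome 3, 127633135 to 127635631, plus strand), a bHLH factor that starts neurogenesis in cortical progenitors, was a low transcript. Its values were 3.01, 4.17 and 3.32 CPM in euploid, 2.61, 2.52 and 1.99 CPM in Ts65Dn, and 9.10, 7.96 and 10.8 CPM in the libraries labelled Ts65Dn;Brwd1+/-. The lowest euploid library lay only just above the highest Ts65Dn library, whereas the remaining genotype stood clear of both. The difference was accordingly small in Ts65Dn vs. euploid (log2 fold change -0.56, SE 0.19) and larger in the 2 comparisons with the libraries labelled Ts65Dn;Brwd1+/- (1.97, SE 0.17, against Ts65Dn, and 1.41, SE 0.17, against euploid).

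Eomes (chromosome 9, 118478212 to 118486132, plus strand), also called Tbr2, encodes the T-box factor that defines intermediate progenitors of the cortex. It was at 2.28, 2.33 and 3.32 CPM in euploid, and at 11.5, 9.97 and 12.8 CPM in the libraries labelled Ts65Dn;Brwd1+/-. In Ts65Dn it was nearly absent, at 0.204, 0.494 and 0.177 CPM, which are 5, 10 and 4 reads. Eomes had the largest fitted differences of the set, with a log2 fold change of -3.20 (SE 0.33) in Ts65Dn vs. euploid and 5.31 (SE 0.28) in the libraries labelled Ts65Dn;Brwd1+/- vs. Ts65Dn. Both rest on those few reads in Ts65Dn. Against euploid, where counts were between 47 and 73, the difference was 4.32-fold (log2 2.11, SE 0.20).

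**Figure D1:**
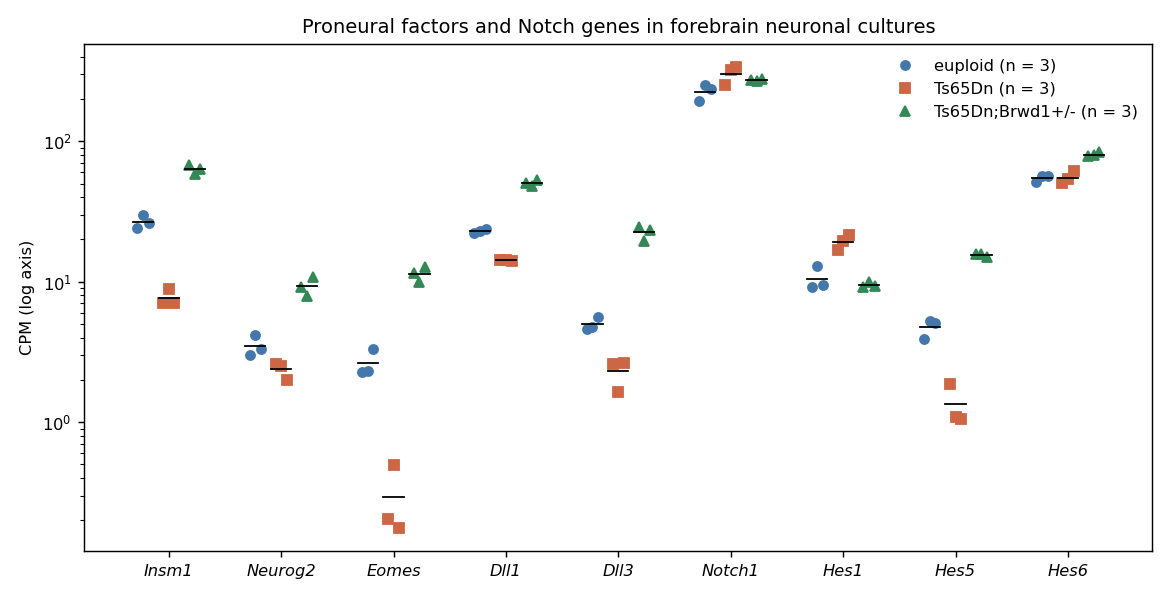
Level of each gene in each of the 9 culture libraries, in CPM on a log axis, with 3 points per genotype (circles, euploid; squares, Ts65Dn; triangles, libraries labelled Ts65Dn;Brwd1+/-) and a bar at the mean. Insm1, Neurog2, Eomes, Dll1, Dll3 and Hes5 are lowest in Ts65Dn and highest in Ts65Dn;Brwd1+/-, Hes1 is highest in Ts65Dn, and Notch1 and Hes6 vary least.

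The Notch ligands followed the same order. Dll1 (chromosome 17, 15367354 to 15376872, minus strand), the ligand by which new neurons activate Notch in neighbouring progenitors, was at 22.2, 23.2 and 23.9 CPM in euploid, 14.2, 14.3 and 14.1 CPM in Ts65Dn, and 50.5, 48.1 and 53.5 CPM in the libraries labelled Ts65Dn;Brwd1+/-. Libraries of each genotype lay close together, above all in Ts65Dn, and the genotypes were far apart in relation to that spread. Its log2 fold changes were -0.70 (SE 0.07) in Ts65Dn vs. euploid, 1.84 (SE 0.07) in the libraries labelled Ts65Dn;Brwd1+/- vs. Ts65Dn, and 1.13 (SE 0.07) vs. euploid.

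Dll3 (chromosome 7, 28293553 to 28302238, minus strand) encodes a divergent ligand that stays inside the cell and blocks Notch signalling there. It was at 4.61, 4.78 and 5.65 CPM in euploid, 2.61, 1.63 and 2.65 CPM in Ts65Dn, and 24.6, 19.4 and 23.5 CPM in the libraries labelled Ts65Dn;Brwd1+/-. Dll3 differed more than Dll1 in each comparison (log2 fold changes -1.11, 3.28 and 2.17, SE 0.19, 0.17 and 0.16, in the order given for Dll1). The ratio of Dll3 to Dll1, per kilobase of exon, was 0.321 ± 0.0250 (SD, n = 3) in euploid, 0.240 ± 0.0613 in Ts65Dn and 0.656 ± 0.0623 in the libraries labelled Ts65Dn;Brwd1+/-.

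Notch1 (chromosome 2, 26457903 to 26516663, minus strand), the receptor, differed less between genotypes than its ligands did, although its libraries within a genotype were more spread than those of Dll1 in euploid and Ts65Dn. It was at 193.3, 250.0 and 234.8 CPM in euploid, 251.1, 321.1 and 338.3 CPM in Ts65Dn, and 272.4, 267.0 and 276.3 CPM in the libraries labelled Ts65Dn;Brwd1+/-. The lowest Ts65Dn library lay barely above the highest euploid library, and the libraries labelled Ts65Dn;Brwd1+/- fell inside the Ts65Dn range. The log2 fold changes were 0.42 (SE 0.13) in Ts65Dn vs. euploid, -0.16 (SE 0.13) in the libraries labelled Ts65Dn;Brwd1+/- vs. Ts65Dn and 0.27 (SE 0.13) vs. euploid. The ratio of Dll1 to Notch1, per kilobase of exon, was 0.348 ± 0.0379 (SD, n = 3) in euploid, 0.161 ± 0.0271 in Ts65Dn and 0.628 ± 0.0229 in the libraries labelled Ts65Dn;Brwd1+/-, with no overlap between genotypes.

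Hes1 and Hes5, both repressors downstream of Notch, differed between genotypes in opposite directions. Hes1 (chromosome 16, 30064384 to 30067796, plus strand) was at 9.22, 12.9 and 9.42 CPM in euploid, 16.8, 19.4 and 21.7 CPM in Ts65Dn, and 9.19, 10.0 and 9.26 CPM in the libraries labelled Ts65Dn;Brwd1+/-. It was the only member that was higher in Ts65Dn than in both other genotypes without overlap. The log2 fold change was 0.87 (SE 0.14) in Ts65Dn vs. euploid and -1.02 (SE 0.14) in the libraries labelled Ts65Dn;Brwd1+/- vs. Ts65Dn, while the latter and euploid overlapped (-0.15, SE 0.15).

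Hes5 (chromosome 4, 154960923 to 154962371, plus strand), whose promoter with the 2 RBPJ cores is printed above, had the reverse pattern. It was at 3.88, 5.26 and 5.10 CPM in euploid, 1.88, 1.09 and 1.06 CPM in Ts65Dn, and 15.7, 15.8 and 15.1 CPM in the libraries labelled Ts65Dn;Brwd1+/-. The Ts65Dn libraries were lowest and the libraries labelled Ts65Dn;Brwd1+/- highest, with no overlap. Its log2 fold changes were -1.81 (SE 0.21) in Ts65Dn vs. euploid, 3.51 (SE 0.20) in the libraries labelled Ts65Dn;Brwd1+/- vs. Ts65Dn, and 1.70 (SE 0.17) vs. euploid. Per kilobase of exon, Hes5 was at 0.683 ± 0.110 (SD, n = 3) of the level of Hes1 in euploid, 0.108 ± 0.0516 in Ts65Dn and 2.44 ± 0.0987 in the libraries labelled Ts65Dn;Brwd1+/-, so which of the 2 repressors was the more abundant differed between genotypes.

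Hes6 (chromosome 1, 91411483 to 91414038, minus strand) is a member of the Hes family that opposes Hes1 and promotes differentiation. It was at 51.1, 56.7 and 56.5 CPM in euploid, 50.6, 53.5 and 61.4 CPM in Ts65Dn, and 78.3, 79.5 and 83.9 CPM in the libraries labelled Ts65Dn;Brwd1+/-. Euploid and Ts65Dn overlapped (log2 fold change 0.01, SE 0.08), and the remaining libraries lay above both by about the same amount (0.55 and 0.56, SE 0.08 each). Hes6 was thus the only member with a difference in the comparisons with the libraries labelled Ts65Dn;Brwd1+/- but none beyond the spread in Ts65Dn vs. euploid.

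**Figure D2:**
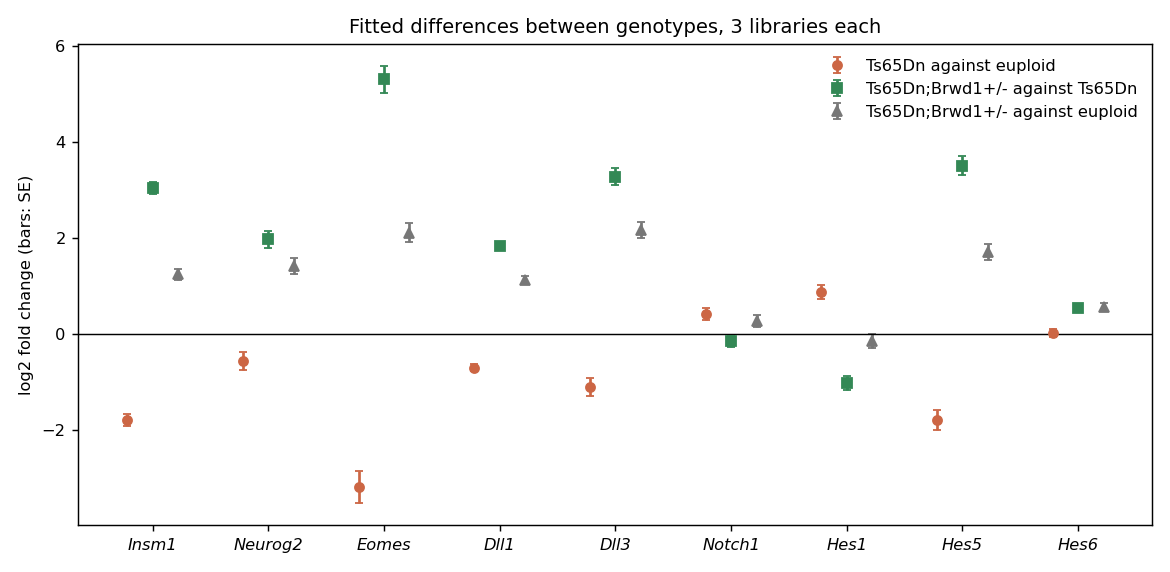
Fitted log2 fold change of each gene in the 3 comparisons, with bars for the standard error (n = 3 libraries per genotype). Eomes spans the widest range, from -3.20 to 5.31, and Hes1 is the only gene of the set above 0 in the first comparison whose libraries were all below Ts65Dn in the second.

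In Ts65Dn vs. euploid, libraries of the 2 genotypes did not overlap for 8 of the 9 members, 6 of them lower and 2 higher (Notch1 and Hes1) in Ts65Dn. Over all genes tested, the libraries did not overlap for 56.8%, with 25.5% lower and 31.2% higher. In the libraries labelled Ts65Dn;Brwd1+/- vs. Ts65Dn, 8 members did not overlap, 7 higher and 1 lower (Hes1), beside 68.4% of all genes, 33.6% higher and 34.9% lower. In the libraries labelled Ts65Dn;Brwd1+/- vs. euploid, 8 members did not overlap and all 8 were higher, beside 45.9% of all genes in either direction and 22.3% higher. The median log2 fold change of the members was -0.70, 1.97 and 1.25 in the 3 comparisons, and that of all tested genes was 0.04, 0.00 and -0.02. The comparisons share libraries, so their values are not independent of each other, and since the members were chosen with these results in view nothing is read from the counts.

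The order of the members by level, per kilobase of exon, changed between genotypes. Hes6 was the most abundant in all 3, with 30.3, 30.5 and 44.6 CPM per kilobase (euploid, Ts65Dn, then Ts65Dn;Brwd1+/-), and Eomes the least, with 0.636, 0.0702 and 2.75. In euploid the order between them was Notch1 (15.9 CPM per kilobase), Insm1 (8.62), Dll1 (5.47), Hes1 (5.16), Hes5 (3.48), Dll3 (1.76) and Neurog2 (1.57), in which Dll1 did not differ from Hes1, nor Dll3 from Neurog2, beyond the range of the libraries. In Ts65Dn, Hes1 (9.46) stood in the place after Notch1 and Insm1 (2.48) after Dll1, and Neurog2, Hes5 and Dll3 at 1.07, 0.984 and 0.806 overlapped as neighbours. In the libraries labelled Ts65Dn;Brwd1+/-, Insm1 (20.4) and Notch1 (19.1) overlapped, as did Dll1 (12.01) and Hes5 (11.4), and Hes1 (4.66) and Neurog2 (4.17).

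The genes whose profile over the 9 libraries came closest to that of Insm1 were Dlx1, Sp8, Adarb2, Gm11868 and Scrt2, with a root mean square difference of centred log2 CPM from 0.248 to 0.293, out of 17172 other genes. Dlx1 and Sp8 are transcription factors of ventral progenitors and interneurons, and Scrt2 is a zinc-finger repressor of the same superfamily as Insm1. Dlx1 was at 69.3 CPM ± 5.95 (SD, n = 3) in euploid, 21.7 ± 3.21 in Ts65Dn and 205.0 ± 22.3 in the libraries labelled Ts65Dn;Brwd1+/-. Among the members, Hes5 came nearest to Insm1 at rank 18 (0.347), followed by Dll3 at rank 76 (0.481), Dll1 at rank 133 (0.557) and Neurog2 at rank 162 (0.575), whereas Eomes (0.848) stood apart by its larger swings and Hes1 (1.69) was the most unlike. The pair of members most alike was Neurog2 and Dll1, with a difference of 0.187.

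A list of 76 further genes of the pathway, none of them a member, was followed with tests over all genes, and 64 of them passed the filter. It was compiled with earlier results known. In Ts65Dn vs. euploid, 40 of the 64 (62.5%) were called by edgeR at an adjusted p under 0.05, beside 46.7% of all genes tested. Of these, 19 were higher, beside 25.6% of all genes, and 21 were lower, beside 21.1%. In the libraries labelled Ts65Dn;Brwd1+/- vs. Ts65Dn, 43 (67.2%) were called, beside 58.1% of all genes, 25 of them higher (background 27.6%) and 18 lower (30.5%). In the libraries labelled Ts65Dn;Brwd1+/- vs. euploid, 25 (39.1%) were called, beside 29.2%. The list's median log2 fold change was -0.03, -0.05 and -0.03, beside 0.04, 0.00 and -0.02 over all genes.

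**Figure D3:**
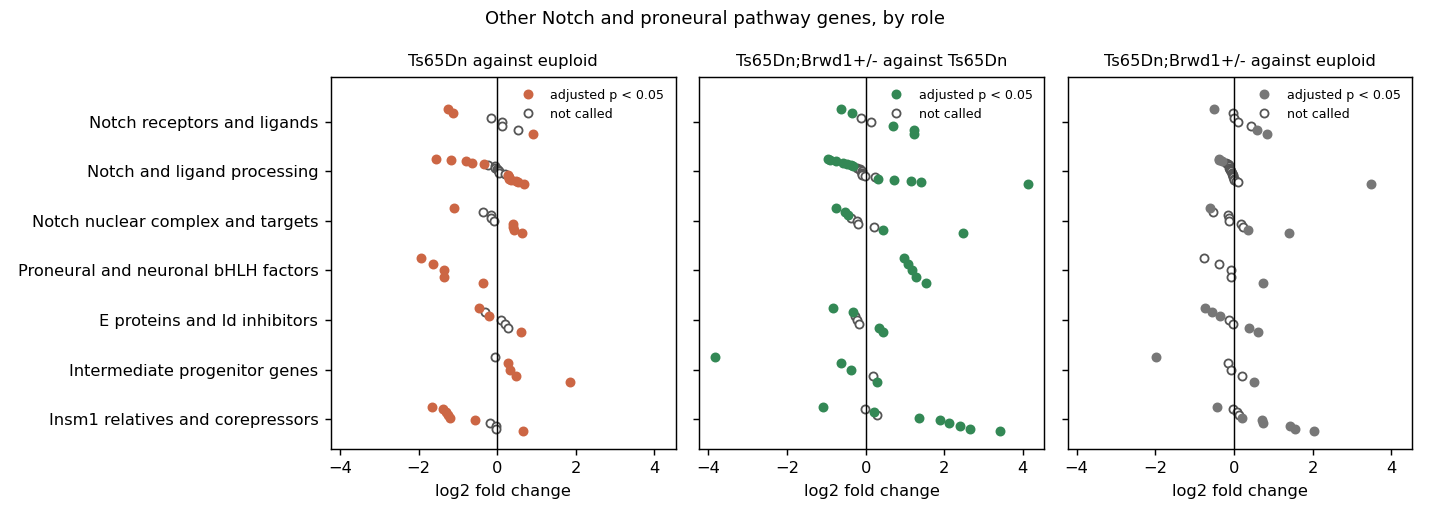
Log2 fold change of the 64 tested pathway genes in 7 role groups, with 1 panel per comparison. Filled points passed the adjusted p threshold and open points did not. All 5 tested proneural and neuronal bHLH factors lie left of 0 in Ts65Dn vs. euploid and right of 0 in Ts65Dn;Brwd1+/- vs. Ts65Dn, and Mfng (4.14) and Mfap4 (-3.83) stand at the ends of the middle panel.

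Among other proneural and neuronal bHLH factors, 5 of 11 were tested and all 5 fell in Ts65Dn vs. euploid and rose in the libraries labelled Ts65Dn;Brwd1+/- vs. Ts65Dn. Over all genes tested, 21.1% fell in the former comparison and 27.6% rose in the latter. Bhlhe22 and Neurod1, which act in cells already committed to be neurons, fell most in Ts65Dn (-1.95 and -1.62, edgeR adjusted p = 0.00156 and 0.00123). Neurod1 and Neurod2 rose most against Ts65Dn (1.54 and 1.28, edgeR adjusted p = 8.99e-04 and 0.00157), and neither was called against euploid (-0.08 and -0.07). The other 6, Neurog1, Neurog3, Neurod4, Atoh1, Atoh7 and Ptf1a, had too few reads to be tested.

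Of the genes related to Insm1 or to the corepressors it recruits, 6 of 10 tested fell and 1 rose in Ts65Dn (21.1 and 25.6% of all genes). In the libraries labelled Ts65Dn;Brwd1+/- vs. Ts65Dn, 7 rose and 1 fell (27.6 and 30.5% of all genes). Myt1 and St18, zinc-finger factors that repress progenitor genes in new neurons, fell by 1.37 and 1.66 on the log2 scale in Ts65Dn (edgeR adjusted p = 7.87e-04 and 2.62e-04). Myt1 and Scrt2 rose most against Ts65Dn (3.41 and 2.67, edgeR adjusted p = 1.50e-06 and 2.22e-06), and Myt1 and Rcor2, a corepressor that partners the demethylase Kdm1a, were highest above euploid (2.04 and 1.56, edgeR adjusted p = 6.88e-05 and 3.62e-05). Rest, the repressor of neuronal genes outside neurons, moved the other way, with 0.65 in Ts65Dn vs. euploid (edgeR adjusted p = 0.00206) and -1.08 in the libraries labelled Ts65Dn;Brwd1+/- vs. Ts65Dn (edgeR adjusted p = 4.59e-05). Rest was named after its values were seen.

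Of 5 other intermediate progenitor genes, 4 rose and none fell in Ts65Dn (25.6 and 21.1% of all genes), and 3 fell and 1 rose in the libraries labelled Ts65Dn;Brwd1+/- vs. Ts65Dn (30.5 and 27.6%). Mfap4, a matrix protein, rose by 1.85 (edgeR adjusted p = 2.02e-05) and then fell by 3.83 (edgeR adjusted p = 2.59e-07), and was below euploid in the last comparison (-1.98, edgeR adjusted p = 3.38e-05), a pattern opposite to that of Eomes in the same libraries. Gadd45g, a stress-response gene that proneural factors induce, had 0.47 (edgeR adjusted p = 0.0168) and -0.62 (edgeR adjusted p = 0.00302), and the former was not called without euploid replicate 1 (0.34, adjusted p = 0.0556). Sstr2, a somatostatin receptor, was above euploid in the libraries labelled Ts65Dn;Brwd1+/- (0.51, edgeR adjusted p = 0.00887), but was not called without euploid replicate 3 (0.39, adjusted p = 0.0555).

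Of 7 other receptors and ligands tested, 1 rose and 2 fell in Ts65Dn (42.9% called, beside 46.7% of all genes). In the libraries labelled Ts65Dn;Brwd1+/- vs. Ts65Dn, 3 rose and 2 fell (71.4%, beside 58.1% of all genes). The ligand Jag2 and the ligand-like Dlk2 fell in Ts65Dn by 1.25 and 1.13 on the log2 scale (edgeR adjusted p = 4.63e-04 and 0.00760) and rose by 1.24 and 1.22 in the next comparison (edgeR adjusted p = 2.05e-04 and 0.00346). Neither was called in the libraries labelled Ts65Dn;Brwd1+/- vs. euploid (-0.01 and 0.09). Jag1, another ligand, was above euploid in the libraries labelled Ts65Dn;Brwd1+/- (0.83, edgeR adjusted p = 1.28e-04), as was the receptor Notch3 (0.57, edgeR adjusted p = 0.0107). The latter was not called without euploid replicate 3 (0.50, adjusted p = 0.0552).

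Genes that process Notch or its ligands numbered 21, all tested. In Ts65Dn 8 rose and 5 fell (61.9% called, beside 46.7% of all genes). In the libraries labelled Ts65Dn;Brwd1+/- vs. Ts65Dn 5 rose and 7 fell (57.1%, beside 58.1% of all genes). Mfng, the glycosyltransferase Manic Fringe that alters which ligand Notch responds to, had the largest difference, with 4.14 against Ts65Dn (edgeR adjusted p = 1.98e-07) and 3.49 against euploid (edgeR adjusted p = 1.48e-06). The ubiquitin ligases Neurl1a and Neurl1b, which act on ligands, fell in Ts65Dn by 1.56 and 1.17 (edgeR adjusted p = 0.00213 and 0.00480), and Neurl1a rose by 1.42 in the next comparison (edgeR adjusted p = 0.00212). Numb, an inhibitor of Notch, was lower in the libraries labelled Ts65Dn;Brwd1+/- than in euploid (-0.39, edgeR adjusted p = 0.00907).

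In the nuclear complex and among other targets, 9 of 12 genes were tested. In Ts65Dn 4 rose and 1 fell (55.6% called, beside 46.7% of all genes). In the libraries labelled Ts65Dn;Brwd1+/- vs. Ts65Dn 2 rose and 3 fell (55.6%, beside 58.1% of all genes). Nrarp, a Notch target that dampens the pathway, moved as Hes5 did, with -1.09, 2.49 and 1.40 in the 3 comparisons (edgeR adjusted p = 0.00938, 1.54e-05 and 7.94e-04). The coactivator Maml2 moved as Hes1 did, with 0.63 in Ts65Dn vs. euploid and -0.75 in the next (edgeR adjusted p = 0.00142 and 2.63e-04). Hey1, another target, was below euploid in the libraries labelled Ts65Dn;Brwd1+/- (-0.61, edgeR adjusted p = 7.98e-04). Of 7 E proteins, the partners of proneural factors, and Id inhibitors, 1 rose and 2 fell in Ts65Dn (42.9% called) and 2 rose and 2 fell in the next comparison (57.1%). Both shares were close to those of all genes given above. The E proteins Tcf12 and Tcf4 had 0.60 and -0.47 in Ts65Dn (edgeR adjusted p = 0.00130 for each), Tcf4 rose by 0.44 in the next (edgeR adjusted p = 9.35e-04), and Id1, an inhibitor of bHLH factors, was lower in the libraries labelled Ts65Dn;Brwd1+/- than in Ts65Dn and euploid (-0.83 and -0.74, edgeR adjusted p = 9.23e-05 and 6.44e-04), where Tcf3, another E protein, was above euploid (0.60, edgeR adjusted p = 0.00255).

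Markers of neurons moved with most members, and those of other cell types in a forebrain culture did not all do so. Over all genes tested, 25.6% rose and 21.1% fell in Ts65Dn vs. euploid, and 27.6% rose and 30.5% fell in the libraries labelled Ts65Dn;Brwd1+/- vs. Ts65Dn. All 10 markers of ventral progenitors and interneurons fell in Ts65Dn, and all 10 rose in the libraries labelled Ts65Dn;Brwd1+/- vs. Ts65Dn, with summed levels of 360 to 421 CPM in euploid, 94.7 to 153 in Ts65Dn and 777 to 883 in those libraries. All 8 markers of postmitotic neurons fell and then rose, from 3633 to 4525 CPM in euploid to 976 to 2306 and back to 3951 to 4847, so neuronal genes were present in every library beside the glial genes given next. Markers of cortical excitatory neurons summed to 445 to 584, 89.6 to 309 and 537 to 697 CPM (6 of 8 lower in Ts65Dn and 5 of 8 higher in the next comparison). The lowest neuronal values were those of Ts65Dn replicate 3. Without that library the log2 fold change in Ts65Dn vs. euploid was -1.74 for Insm1, -0.45 for Neurog2, -2.95 for Eomes and -1.65 for Hes5, and 0.78 for Hes1.

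Dividing-cell markers parted from Insm1 in Ts65Dn vs. euploid and went its way in the libraries labelled Ts65Dn;Brwd1+/-. In Ts65Dn 9 of 10 rose vs. euploid, and 9 of 10 rose again in the libraries labelled Ts65Dn;Brwd1+/- vs. Ts65Dn, with sums of 262 to 281, 349 to 413 and 623 to 630 CPM in the 3 genotypes. Radial glial markers were mixed, with 4 higher and 4 lower of 10 in Ts65Dn and sums of 4806 to 5485, 7153 to 8897 and 3968 to 4552 CPM. Vim held much of these sums, and without it the other 9 summed to 2101 to 2564, 2039 to 2273 and 2678 to 2927 CPM, with Ts65Dn no longer highest. Astrocyte markers summed to 1905 to 2381, 2737 to 3280 and 2132 to 2435 CPM and were mixed, with 4 higher and 1 lower (Slc1a2) of 7 in Ts65Dn. In the libraries labelled Ts65Dn;Brwd1+/- vs. Ts65Dn, 2 of them rose (Slc1a2 and Aldoc) and 5 fell. Oligodendrocyte lineage markers were at 49.3 to 57.0 and 54.9 to 66.9 CPM in euploid and Ts65Dn and at 211 to 268 CPM in the libraries labelled Ts65Dn;Brwd1+/- (5 of 6 higher than Ts65Dn). Microglial markers stayed at or below 11.8 CPM in sum. Vascular and meningeal genes summed to 744 to 1003 CPM in Ts65Dn, beside 115 to 124 in euploid and 126 to 158 in the other libraries, and Kdr and Col1a1 held most of the Ts65Dn sum. Of the 5 tested, 2 rose (Kdr and Col1a1) and 2 fell (Dcn and Lum, log2 fold changes -3.23 and -2.39, edgeR adjusted p = 1.92e-05 and 3.93e-04) in Ts65Dn, and the defining endothelial gene Cldn5 was at 0 in all 9 libraries. The part of these cell type differences in the levels of the 9 genes was not tested.

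**Figure D4:**
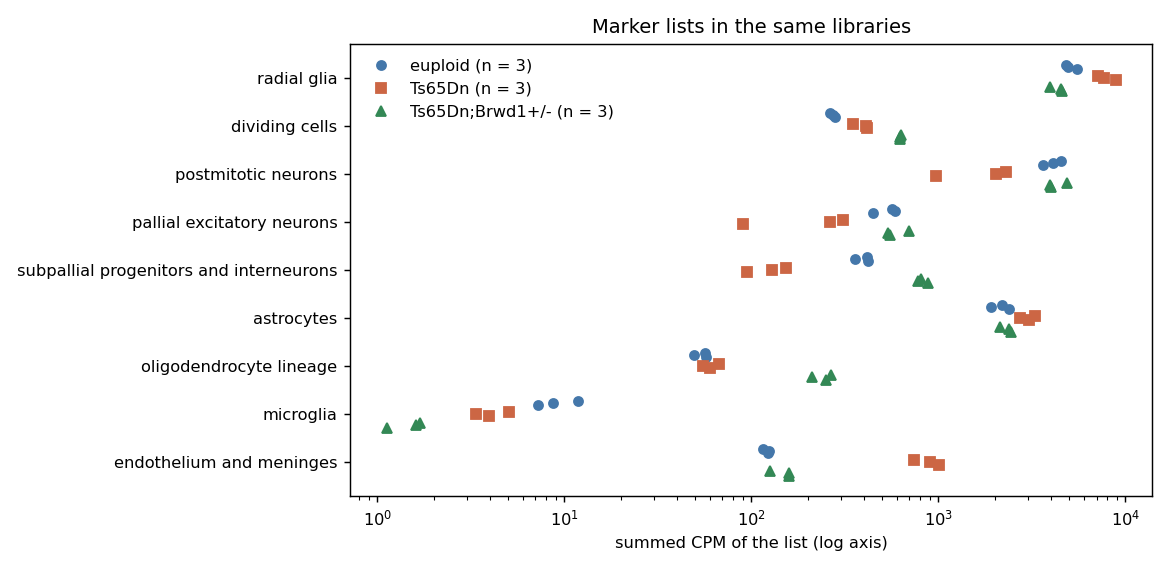
Summed level of each marker list in each of the 9 culture libraries, in CPM on a log axis, with 3 points per genotype. Ts65Dn is lowest for neurons and for ventral progenitors and interneurons, and the libraries labelled Ts65Dn;Brwd1+/- are highest for the latter, for dividing cells and for the oligodendrocyte lineage.

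The 6 peak lists hold 1 pooled list per assay and genotype, so they carry no replicate error, and they come from adult hippocampus rather than from the cultures. Their sizes were very unequal, with 15521, 29195 and 30244 open-chromatin peaks and 22667, 1290 and 1873 SMARCA2/4 peaks in euploid, Ts65Dn and Ts65Dn;Brwd1+/-. Peaks of open chromatin named 2, 3 and 3 of the 9 members in that order, beside 53.3, 66.0 and 65.6% of all genes tested. SMARCA2/4 peaks named 3, 2 and 1 members, beside 38.6, 4.14 and 4.89%. Of the 9, Insm1, Eomes, Dll3 and Hes5 were named in none of the 6 lists. The nearest open-chromatin peak lay 87.5, 47.5 and 37.2 kb from the start of Insm1 and 27.8, 22.4 and 22.4 kb from that of Eomes. Around Hes5, peaks 3.39, 3.02 and 3.34 kb from its start were assigned to its neighbour Pank4, and around Dll3 peaks 9.63, 9.50 and 9.44 kb away to Timm50.

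Hes6, the most abundant member per kilobase of exon, was also the member with an open-chromatin peak in all 3 genotypes at a start site. The peaks spanned 91413190 to 91413404 in euploid, 91413106 to 91413422 in Ts65Dn and 91413047 to 91413431 in Ts65Dn;Brwd1+/- on chromosome 1, with fold enrichments of 3.34, 4.66 and 4.02 (q-values 5.26e-10, 5.36e-22 and 3.54e-24). They overlapped each other and lay on the inner Hes6 start, whose window is printed above, and all 3 held its CAGCTG and the N-box match after the start. A euploid SMARCA2/4 peak (91413491 to 91413548, fold enrichment 4.10, q = 6.80e-04) lay in an intron of a longer noncoding transcript, 86 bp from the euploid open-chromatin peak. In Ts65Dn the only SMARCA2/4 peak of Hes6 lay at another place, before the outer start (91414292 to 91414348, fold enrichment 3.90), with a q-value of 0.0989.

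Notch1 held most of the euploid SMARCA2/4 peaks of the set. There were 3, at 26493489 to 26493639 (fold enrichment 3.82, q = 0.00240), 26500440 to 26500728 (4.71, q = 5.69e-05) and 26500901 to 26500956 (3.92, q = 0.00267) on chromosome 2, and none in either trisomic list. Open chromatin was found at 2 of these places. At the inner place, overlapping peaks stood in the Ts65Dn (26493540 to 26493831, fold enrichment 3.78) and Ts65Dn;Brwd1+/- lists (26493587 to 26493826, 2.79) and none in the shorter euploid list. At the other, peaks of all 3 genotypes overlapped, with fold enrichments of 3.43, 4.88 and 3.62, and each covered the whole of the narrow SMARCA2/4 peak. This stretch, centred 2873 bp after the start that the euploid list assigns to Notch1 and overlapping an exon of a retained-intron transcript, is printed as the place where both assays met in euploid, with the SMARCA2/4 peak in capitals.
Notch1 site (chr2:26500837-26501062, minus strand): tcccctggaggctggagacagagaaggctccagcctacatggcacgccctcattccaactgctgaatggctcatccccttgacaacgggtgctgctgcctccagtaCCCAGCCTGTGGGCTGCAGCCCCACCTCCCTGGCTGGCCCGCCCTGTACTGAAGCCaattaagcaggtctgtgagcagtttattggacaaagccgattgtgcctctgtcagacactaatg

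Neurog2 had an open-chromatin peak in both trisomic lists and none in the shorter euploid list. The Ts65Dn peak ran from 127634201 to 127634476 (fold enrichment 3.53, q = 4.93e-08) and the Ts65Dn;Brwd1+/- peak from 127634137 to 127634434 (4.23, q = 1.22e-15) on chromosome 3. They shared 234 bp within the coding part of the only coding exon, and the euploid list had no peak within 79.4 kb of the start. The shared stretch is printed with its CAGCTG in capitals.
Neurog2 site (chr3:127634201-127634434, plus strand): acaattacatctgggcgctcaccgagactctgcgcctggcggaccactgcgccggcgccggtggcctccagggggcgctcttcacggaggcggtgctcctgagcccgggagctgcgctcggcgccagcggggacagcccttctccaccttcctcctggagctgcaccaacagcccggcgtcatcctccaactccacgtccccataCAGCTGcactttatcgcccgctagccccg
Without replicates for the peaks, whether this differs between genotypes was not tested.

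For Hes1, the member highest in Ts65Dn cultures, the euploid SMARCA2/4 list held a peak in the last coding exon (chromosome 16, 30066934 to 30067001, fold enrichment 4.02, q = 0.00227) and the trisomic lists none. No open-chromatin peak named Hes1. The nearest lay 4.78 kb from its start in both trisomic lists, where it named no gene, and 55.1 kb away in the shorter euploid list. For Dll1, peaks stood only in the trisomic SMARCA2/4 lists, before the start in Ts65Dn (chromosome 17, 15376971 to 15377022, fold enrichment 3.13, q = 1.0) and after it in Ts65Dn;Brwd1+/- (15376612 to 15376696, 3.60, q = 0.277). Those q-values do not separate them from background. No SMARCA2/4 peak of a member overlapped one of the same gene in another genotype. The Ts65Dn and Ts65Dn;Brwd1+/- lists held only 2 and 1 member peaks, none with q under 0.05, so little overlap was possible. The open-chromatin peaks of Hes6, Notch1 and Neurog2 gave 8 overlapping pairs. Nothing is read from the difference between the assays.

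**Figure D5:**
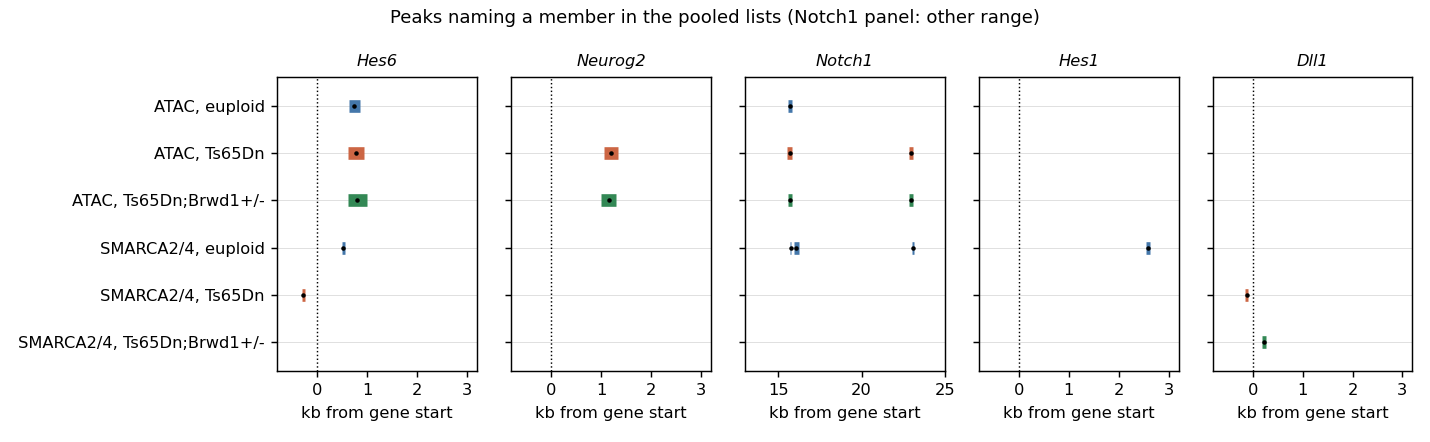
Position of each peak that names a member, in kilobases from the annotated start of the gene in its direction of transcription, with 1 row per assay and genotype and bars drawn to the width of the peak. Hes6 and Notch1 have open-chromatin peaks in all 3 genotypes, Neurog2 only in the trisomic ones, and SMARCA2/4 peaks of Notch1 and Hes1 stand only in the euploid row.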

How the data were processed

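RNA from the 9 cultures was sequenced with a TruSeq kit, and the authors aligned reads with HISAT2 to mm10 and deposited raw counts per Ensembl gene for each library. Between 37.4 and 40.0% of counts stood in lines that name no gene and were left out. For SMARCA2/4 ChIP-seq and ATAC-seq the authors called peaks with MACS and deposited 1 list per assay and genotype, each with a fold enrichment over control and a q-value, so no replicate error can be given for peaks. Which start of a gene the lists measured distances from is as deposited.

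Counts were filtered (filterByExpr) and scaled by TMM, and a quasi-likelihood model of edgeR 4.0.16 (R 4.3.3) with genotype as its only term was fitted to all 17173 tested genes and 9 libraries. P-values were adjusted by the Benjamini-Hochberg method over all tested genes, with a threshold of 0.05. The same steps were tested on simulated data. Each SE was the absolute log2 fold change divided by the square root of the model's F statistic. For the members it is given as a description of spread and not as a test. CPM were taken on the TMM-scaled library size. The 9 genes, the pathway list and the marker lists were chosen with earlier results of these data known. In each role group and comparison, the text names the 2 called genes of largest difference whose libraries do not overlap, and the 5 genes nearest Insm1. Of the genes this rule names, 1 is not reported here. Libraries of euploid and Ts65Dn with the same number deviated together (r = 0.129, 0.206 and 0.263), so a fit with the number as a block was also made. DESeq2 1.42.0, its size factors, a robust fit, the 6 libraries of each pair of genotypes alone, other filters, and leaving out each library were the alternatives. Promoter sequences are RefSeq's for GRCm38.p6, and gene positions are GENCODE's for the same build.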

Additional observations from a re-analysis of the deposited data

How the results depend on the processing

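The replicate block did not move any count of calls by over 1.5 times. It called 8349, 10268 and 5397 genes, and 42, 46 and 26 of the pathway list, in Ts65Dn vs. euploid, Ts65Dn;Brwd1+/- vs. Ts65Dn and Ts65Dn;Brwd1+/- vs. euploid. Same-numbered libraries did not all deviate together in the pairs with Ts65Dn;Brwd1+/- (r = 0.096, -0.162 and 0.186 with euploid, and 0.279, -0.125 and 0.206 with Ts65Dn). Differently numbered libraries had r from -0.38 to 0.248 over all pairs of genotypes, so a shared effect of the number is not established. Leaving out 1 library at a time gave 6667 to 7894, 8526 to 10164 and 3707 to 5761 genes called, and 33 to 40, 37 to 45 and 18 to 27 of the pathway list. Of 429 values of the members' log2 fold changes under the alternatives, 424 moved by less than 1 SD and 5 by more, the largest being Eomes at -3.75 and 5.86 without Ts65Dn replicate 2. Of the members near 0, 2 had values on both sides of it, Hes6 in Ts65Dn vs. euploid (-0.07 to 0.07) and Hes1 in Ts65Dn;Brwd1+/- vs. euploid (-0.27 to 0.02). Eomes had no value with at least 10 reads in every library. Of 653 values of named pathway genes, 650 kept their side of the threshold. With a fold enrichment above 4, the open-chromatin lists held 0, 2 and 2 member peaks (euploid, Ts65Dn, Ts65Dn;Brwd1+/-) and the SMARCA2/4 lists 3, 0 and 0. With q under 0.05 the SMARCA2/4 lists of Ts65Dn and Ts65Dn;Brwd1+/- held 0 and 0. Both are stricter cuts on the same peaks. Counting instead every peak on a member's gene body or the 5 kb before its start gave 2, 5 and 5 open-chromatin peaks and 5, 2 and 1 SMARCA2/4 peaks.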
